A study of Homo sapiens with 10 samples.

Results

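A group of 7 microRNAs (miRNAs) known from the nervous system was followed through probe purifications from a liver tumour line and a prostate cancer line. They are hsa-miR-9, hsa-miR-124, hsa-miR-128, hsa-miR-137 and hsa-miR-132, known from neurons and neural progenitors, and hsa-miR-219-5p and hsa-miR-338-3p, known from oligodendrocytes. They were taken by name, guide strand only, and make up 7 of the 737 miRNAs measured (740 assays); all 7 are on panel 1, with 1 well each per purification. The choice was made with earlier results of these data known. In HepG2, a human liver tumour line, RNA was purified with a p21 probe, a STAT3 probe or a control probe, and the prostate cancer line PC-3 was treated with a p21 probe or a control probe. The probe was put into the living cells by transfection for 24 hours, and what it held was then pulled down with streptavidin beads (miRIP in the submitters' term). The p21 mRNA encodes a cyclin-dependent kinase inhibitor and the STAT3 mRNA a cytokine-activated transcription factor. Each of the 5 purifications was made 1 time and run on 2 quantitative PCR panels, so no difference between probes could be checked against replicates or tested. The amounts of p21 and STAT3 mRNA in the purifications were not analysed here.

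A miRNA pairs with messenger RNAs mainly through its seed, bases 2 to 8, and lowers their stability or translation within an Argonaute complex. miR-9 acts in neural progenitors and in the timing of neurogenesis. miR-124, among the most abundant miRNAs of neurons, represses non-neuronal transcripts such as PTBP1 and has been reported to target STAT3. miR-128 limits neuronal excitability, miR-137 acts in neuronal maturation and at synapses, and miR-132 is induced by neuronal activity through CREB. miR-219 and miR-338 promote the differentiation of oligodendrocytes, the myelin-forming cells of the central nervous system.

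The sequences are shown for their seeds, since miRNAs with 1 seed in common share most of their predicted target sites. RefSeq (GRCh38.p14) held the mature sequence of 6 of the 7, matched through present names (miR-9-5p, miR-128-3p, miR-219a-5p, miR-338-3p, miR-137-3p and miR-132-3p). They are given 5′ to 3′ with the seed in capitals, and miR-212, the partner of miR-132 in its cluster, is added for its seed.
miR-9: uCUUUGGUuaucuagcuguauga
miR-128: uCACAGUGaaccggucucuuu
miR-137: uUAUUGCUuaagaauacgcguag
miR-132: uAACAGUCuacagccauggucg
miR-212: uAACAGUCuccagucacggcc
miR-219-5p: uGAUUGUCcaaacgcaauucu
miR-338-3p: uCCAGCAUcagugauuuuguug
The 6 members shown have 6 different seeds, and only miR-132 shares its seed with the added miR-212. They are 21 to 23 bases long with 34.8% to 50.0% G and C.

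The genes of these miRNAs lie apart from each other in GRCh38.p14. miR-9 comes from MIR9-1 at chr1:156420341-156420429 and MIR9-2 at chr5:88666853-88666939 on the minus strand, and from MIR9-3 at chr15:89368017-89368106 on the plus strand. Each of these 3 hairpins lies within a long non-coding host gene (MIR9-1HG, MIR9-2HG and MIR9-3HG). miR-128 comes from MIR128-1 at chr2:135665397-135665478, within R3HDM1 and the non-coding LOC124907893, and MIR128-2 at chr3:35744476-35744559, within ARPP21, both on the plus strand. miR-219-5p comes from MIR219A1 at chr6:33207835-33207944 on the plus strand, where no other gene is annotated, and MIR219A2 at chr9:128392618-128392714 on the minus strand, within the non-coding MIR219A2HG and overlapping MIR219B. MIR338 lies at chr17:81125883-81125949, within AATK and overlapping MIR3065, MIR137 at chr1:98046070-98046171, within the non-coding MIR137HG, and MIR132 at chr17:2049908-2050008, within the non-coding LOC124903896, with MIR212 beside it at chr17:2050271-2050380. These last 4 are on the minus strand.

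Cq is the PCR cycle at which the signal crosses the threshold, so a low Cq means more template, and a Cq of at most 35 counted as detected. Panel 1 has 375 miRNA assays, of which 128 were detected in HepG2 with the p21 probe, 139 with the STAT3 probe and 108 with the control probe. In PC-3 they were 38 with the p21 probe and 8 with the control probe. The median Cq of detected assays on panel 1 lay between 32.47 and 34.19 over the 5 purifications. Assays present on both panels gave a technical SD of 0.68 cycles for 1 well (27 pairs) and of 0.69 cycles for a centred difference between probes (14 pairs), which does not cover the error of transfection or purification. Some of these assays, such as the UniSp6 spike-in at mean Cq 21.18 to 22.74 on panel 1, were earlier than any neural miRNA. Whether this SD holds near the limit of Cq 35 was not tested. The 45 water wells were all without a Cq. Of 6 liver-enriched miRNAs, 0 were detected in HepG2 with the p21 probe, 4 with the STAT3 probe and 0 with the control probe, and miR-122, the hallmark of hepatocytes, gave no Cq in any purification.

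With each probe in HepG2 at least 6 of the 7 neural miRNAs were detected. In PC-3, where few assays passed the limit at all, 0 were detected with either probe. With the p21 probe in HepG2 6 of 7 were detected, against 34.1% of all panel 1 assays. The STAT3 probe gave 7 of 7 (37.1% of all) and the control probe 7 of 7 (28.8% of all). In PC-3 0 of 7 passed the limit with the p21 probe (10.1% of all) and 0 of 7 with the control probe (2.13% of all). All 7 thus passed the limit in a HepG2 purification made with no target probe.

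miR-124 was the member with the lowest Cq in all 3 HepG2 purifications. It stood at Cq 29.16 with the p21 probe, 28.52 with the STAT3 probe and 28.97 with the control probe. These values span 0.64 cycles, less than the technical SD of 0.68. In the control purification 2 of the 375 panel 1 assays had a lower Cq.

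miR-9 had Cq 33.77 with p21, 32 with STAT3 and 30.81 with the control probe. The oligodendrocyte miRNA miR-338-3p followed the same order, at 34.90 with the p21 probe, 32.94 with the STAT3 probe and 31.79 with the control probe. Both had their lowest Cq with the control probe and their highest with the p21 probe, and their ranges of 2.95 and 3.11 cycles were the widest of the 7.

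miR-128 gave Cq 34 with the p21 probe, 33.81 with the STAT3 probe and 32.08 with the control probe. Both target probes stood later than the control, and 0.19 cycles apart from each other. The other oligodendrocyte miRNA, miR-219-5p, gave 33.37 with the p21 probe, 34.66 with the STAT3 probe and 32.55 with the control probe, so that here the STAT3 purification was the latest.

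miR-132 was the only member with its lowest Cq in the p21 purification: it stood at 32.29 with the p21 probe, 33.14 with the STAT3 probe and 33.42 with the control probe. miR-137 gave 35.64 with the p21 probe, above the limit, 34.38 with the STAT3 probe and 34.18 with the control probe. In PC-3 late signals appeared in 3 wells, all above the limit: miR-128 at 36.30 and miR-124 at 38.80 with the p21 probe, and miR-132 at 36.49 with the control probe. The remaining 11 member wells in PC-3 gave no Cq.

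**Figure D1:**
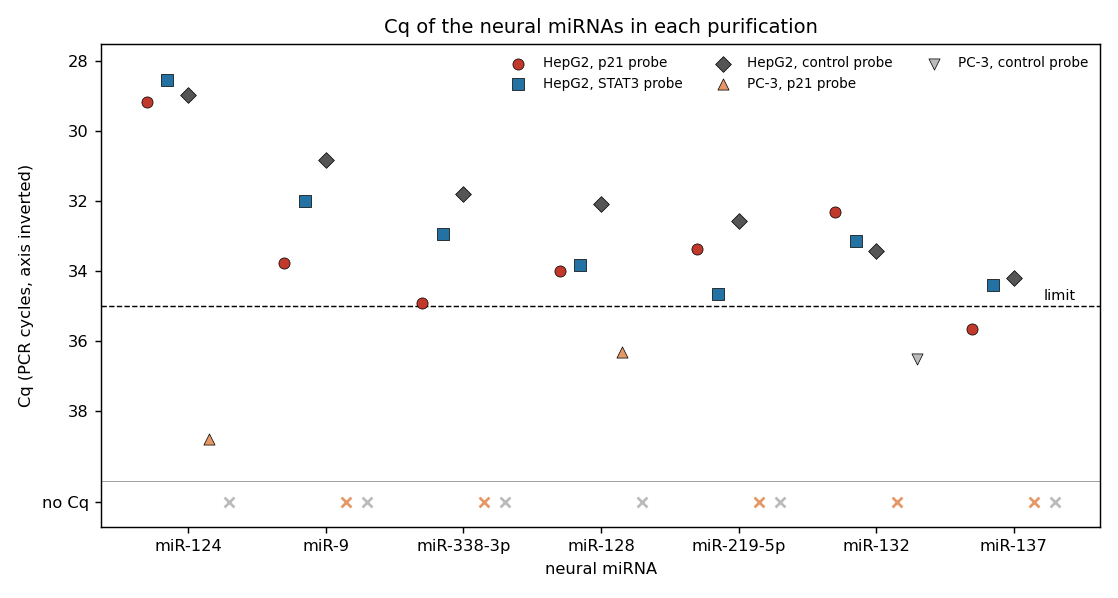
Cq in PCR cycles (vertical axis, inverted so that more template is higher) of the 7 neural miRNAs in the 5 purifications, 1 well per point, with crosses for wells without a Cq and the limit of 35 dashed. All HepG2 points but miR-137 with the p21 probe (35.64) lie above the dashed line, and all PC-3 points lie below it.

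The order of the members changed with the probe. With the p21 probe the order by Cq was miR-124, miR-132, miR-219-5p, miR-9, miR-128, miR-338-3p and miR-137. In that order the gaps between miR-219-5p and miR-9 (0.40 cycles) and between miR-9 and miR-128 (0.23) were below the technical SD of a well. With the STAT3 probe the order was miR-124, miR-9, miR-338-3p, miR-132, miR-128, miR-137 and miR-219-5p, and the last 5 were separated by gaps of 0.20 to 0.67 cycles, each below that SD. With the control probe it was miR-124, miR-9, miR-338-3p, miR-128, miR-219-5p, miR-132 and miR-137, with miR-338-3p, miR-128 and miR-219-5p closer than the SD (0.29 and 0.47). That SD is for 1 well, and a gap holds the error of 2 wells. Gaps a little above it, from 0.74 to 0.97 cycles over the 3 purifications, are thus not taken as resolved either. Cq values of different assays also depend on each assay's efficiency, which the sources used here do not give.

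Places among the detected assays of the same purification need no normaliser. miR-9 held place 92 of 128 with the p21 probe, place 44 of 139 with the STAT3 probe and place 11 of 108 with the control probe. miR-338-3p held place 126 with p21, 61 with STAT3 and 25 with control, and miR-128 place 100 with p21, 90 with STAT3 and 31 with control. miR-219-5p held place 83 with the p21 probe, 118 with the STAT3 probe and 42 with the control probe. miR-124 held place 19 with p21, 11 with STAT3 and 3 with control, and miR-132 place 58 with p21, 64 with STAT3 and 60 with control. With the control probe 5 of the 7 were at or before the median Cq of detected panel 1 assays (33.15), against 2 of 7 with the p21 probe (median 32.47) and 4 of 7 with the STAT3 probe (33.42).

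**Figure D2:**
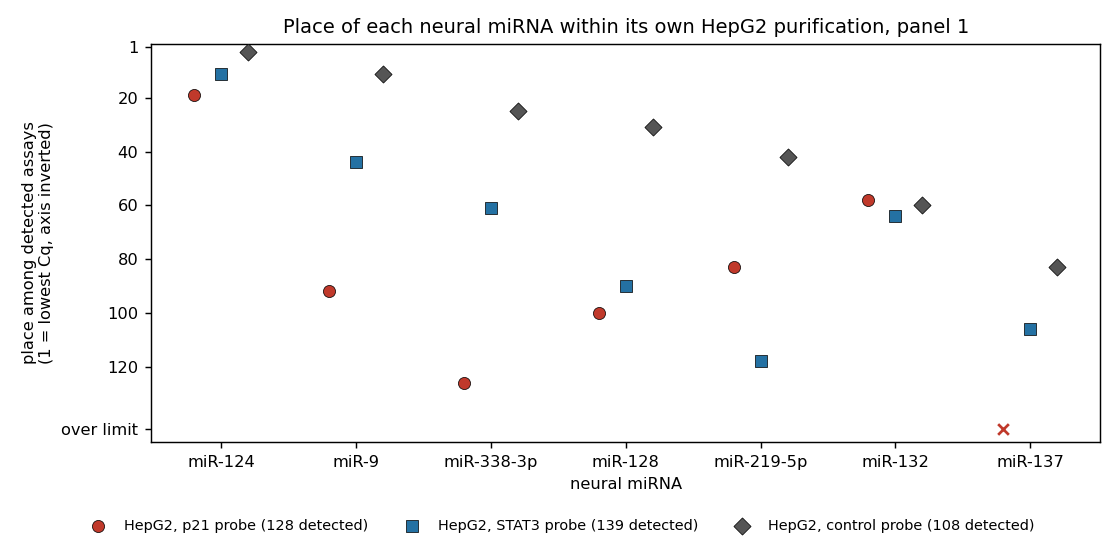
Place of each neural miRNA among the detected panel 1 assays of its own HepG2 purification (vertical axis, inverted, 1 for the lowest Cq), with a cross for the well above the limit. In the control purification miR-124 and miR-9 stand at places 3 and 11; with the p21 probe miR-9 and miR-338-3p stand at places 92 and 126, while miR-132 stays between places 58 and 64.

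With the p21 probe in HepG2, set against the control probe, the neural miRNAs stood below the panel. A difference is the Cq with the control probe minus the Cq with the p21 probe, on the log2 scale, so that a positive value means more with the p21 probe. It was centred on the panel 1 median of 1.30 over assays detected with both probes, and 1 log2 unit (2-fold) or more was counted as higher or lower. Of the 6 members with a Cq within the limit in both, 5 were at least 2-fold lower and 0 at least 2-fold higher, where 37.3% of all 102 assays measured with both were lower and 38.2% higher. Their median was -2.67 log2 units, against 0 over all assays by construction, but it turned to 0.91 when the UniSp3 calibrator was the only correction. That setting moves every assay alike, and the median of the 87 panel 1 assays then stood at 3.58, so relative to it the members' median was -2.67 as before. The 3 UniSp3 wells on panel 1 ranged from Cq 21.60 to 24.91 in the p21 purification and from 20.51 to 21.06 in the control purification.

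miR-338-3p (-4.42, 21.3-fold lower), with miR-9 (-4.25, 19.1-fold lower) and miR-128 (-3.22, 9.33-fold lower), made up the 3 lowest of the 87 panel 1 assays within the limit in both purifications. Assays past the limit with p21 have no place in this order. Over both panels 22 assays were detected with the control probe and not with p21. Among them miR-1, a muscle miRNA, was at least 27.4-fold lower, and miR-138, a miRNA of dendrites, at least 14.6-fold lower. miR-219-5p followed at -2.12 (4.36-fold lower, place 11 from the bottom) and miR-124 at -1.49 (2.80-fold lower, place 21). These 5 differences exceeded the technical SD of 0.69, and miR-132, at -0.17, lay within it. That SD does not draw on the UniSp3 wells, which ranged from Cq 21.60 to 24.91 on panel 1 of the p21 purification. miR-137 was detected with the control probe only and was at least 4.35-fold lower with the p21 probe, taking that well at Cq 35.

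Without centring, the same comparison split the members. miR-9 (-2.95), miR-338-3p (-3.11) and miR-128 (-1.92) were still at least 2-fold lower, a count of 3 of 6 where 10.8% of all assays were lower by that much. miR-219-5p (-0.82) and miR-124 (-0.19) fell short of 2-fold, and miR-132 stood 1.13 log2 units above the control. With U6, SNORD38B and SNORD49A, small nuclear and nucleolar RNAs, as the centre all 6 were at least 2-fold lower, from -5.55 (miR-338-3p) to -1.31 (miR-132), where 52.0% of all assays were. Among the centrings and limits tried, miR-9 and miR-338-3p kept a negative sign in all 8 settings that gave a value, with UniSp3 alone at -0.67 and -0.84, while miR-128, miR-219-5p and miR-124 turned positive with UniSp3 alone (0.36, 1.46 and 2.09).

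**Figure D3:**
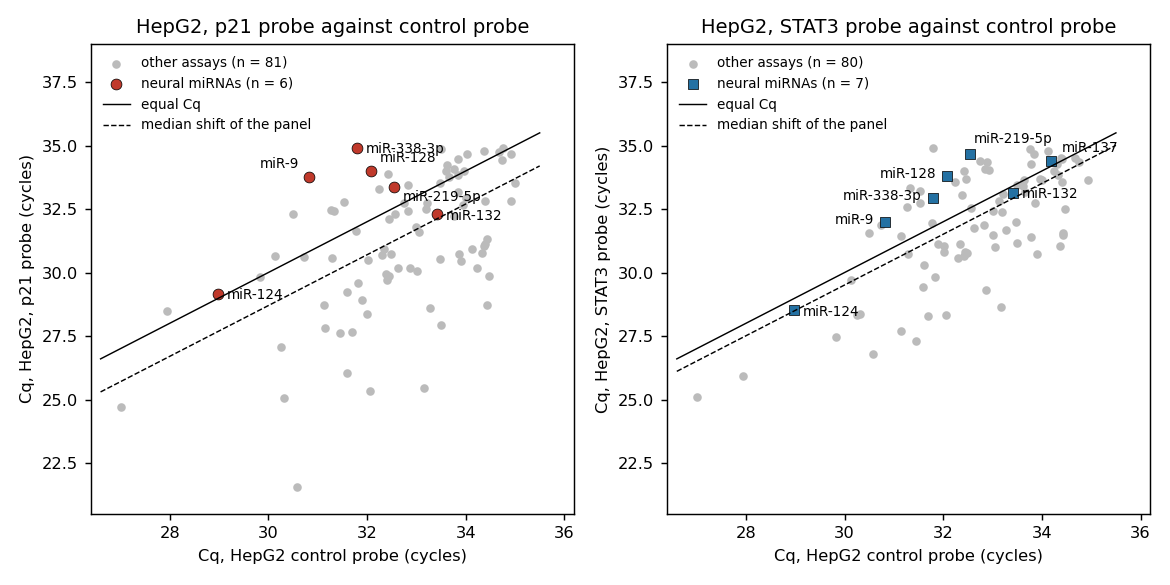
Cq of panel 1 assays detected with both probes in HepG2, target probe (vertical, cycles) against control probe (horizontal, cycles), for the p21 probe on the left and the STAT3 probe on the right; points above the solid line had a later Cq with the target probe, and the dashed line is the median shift. On the left miR-128, miR-9, miR-338-3p and, less far, miR-219-5p lie above both lines, miR-124 lies close to the solid line and miR-132 close to the dashed line. On the right miR-219-5p and miR-128 lie farthest above the lines among the neural miRNAs.

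The STAT3 probe in HepG2 separated the members in another way, with miR-219-5p and miR-128 lowest. miR-219-5p and miR-128 lay closer to each other than the technical SD of 0.69. Differences were centred on the panel 1 median of 0.49. All 7 members were within the limit in both, and 4 were at least 2-fold lower than with the control probe and 0 at least 2-fold higher, where 25.3% of all 99 assays were lower and 29.3% higher. Their median was -1.64, which turned to 0.15 with UniSp3 alone, where the panel 1 median stood at 1.79. Without centring the count was also 4 of 7, where 20.2% of all assays were lower by as much.

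miR-219-5p (-2.61, 6.10-fold lower) and miR-128 (-2.23, 4.68-fold lower) held places 2 and 4 from the bottom of the 87 panel 1 assays within the limit in both. Assays past the limit with STAT3 have no place in this order. Over both panels 25 assays were detected with the control probe and not with STAT3. Among them miR-143, a stromal miRNA, was at least 8.37-fold lower. miR-9 (-1.67, 3.19-fold lower) and miR-338-3p (-1.64, 3.12-fold lower) were at places 14 and 15. Of these 4, miR-219-5p and miR-128 were negative in all 8 settings, while miR-9 and miR-338-3p turned to 0.12 and 0.15 with UniSp3 alone. miR-137 (-0.70), miR-132 (-0.21) and miR-124 (-0.04) stayed under 2-fold; miR-137 lay at about the technical SD and the other two within it. For miR-124, named above as a reported regulator of STAT3, the STAT3 purification thus stood at the panel's median shift, and 0.45 log2 units above the control before centring. Its sign differed among settings, from -1.66 on the reference assays to 1.75 with UniSp3 alone.

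Set directly against the STAT3 purification, without the control, the p21 purification held less of 3 members. miR-338-3p was -2.60 (6.07-fold lower with p21), miR-9 -2.41 (5.31-fold lower) and miR-124 -1.28 (2.42-fold lower), after centring on the panel 1 median of 0.64. miR-128 (-0.83), miR-132 (0.21) and miR-219-5p (0.66) were under 2-fold, and miR-137, over the limit with p21, was at least 2.39-fold lower. That made 3 of 6 lower and 0 higher, where 19.6% of all 153 assays were lower and 28.8% higher. Without centring 2 of 6 were lower (miR-338-3p and miR-9) where 11.1% of all assays were, and miR-219-5p was 1.30 log2 units higher with p21. The median of -1.05 turned to 0.57 with UniSp3 alone, where the panel 1 median stood at 1.62, a setting in which miR-9 (-0.79) and miR-338-3p (-0.98) stayed negative but short of 2-fold. This comparison shares its p21 and STAT3 wells with the comparisons against the control, so the 3 are not independent.

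**Figure D4:**
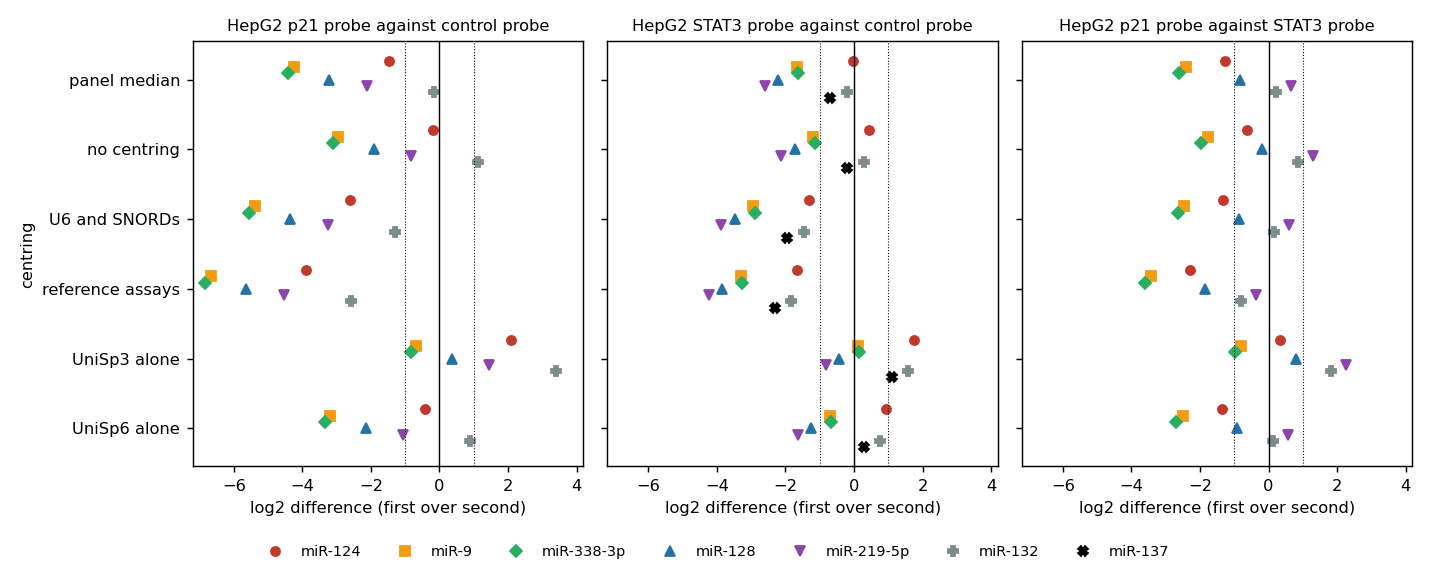
Log2 difference (horizontal axis, first-named probe over second) of each neural miRNA in the 3 HepG2 comparisons, 1 row per centring, with dotted lines at 2-fold. A change of centring moves all members of a comparison together and keeps the distances between them, so miR-338-3p and miR-9 stay leftmost for p21 against control and p21 against STAT3, and miR-219-5p stays leftmost for STAT3 against control.

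Profiles over the 3 HepG2 purifications were compared after taking each assay's own mean away, with 76 other panel 1 assays detected in all 3. The profile nearest to miR-9 was that of miR-338-3p, with a root mean square difference of 0.084 cycles, and the nearest to miR-338-3p was miR-9. miR-133b, a muscle miRNA, came second for both (0.517 and 0.599). For miR-128 the nearest were miR-223 (0.287), known from myeloid cells, miR-133b (0.290) and miR-126 (0.296), known from endothelium. For miR-219-5p they were miR-136 (0.170), miR-29c (0.339) and miR-451 (0.375), an erythroid miRNA. miR-124 lay nearest to miR-29b (0.030), miR-31* (0.035) and miR-888 (0.113), and miR-132 to miR-342-3p (0.065), miR-151-5p (0.082) and miR-665 (0.128). All distances given here except that of miR-18b are below the technical SD of 0.68, and 3 purifications give few points, so the order of neighbours is a description.

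The other strands of the same hairpins were close to or beyond the limit. Of the 6 such assays all but miR-9* are on panel 2, where 80 of 365 assays were detected with p21, 114 with STAT3 and 16 with control. Of these 6, 0 were detected in HepG2 with the p21 probe, 1 with the STAT3 probe (miR-132* at 34.95) and 0 with the control probe. miR-9* gave late signals at 36.65 with the p21 probe, 35.82 with the STAT3 probe and 35.83 with the control probe. miR-124* and miR-338-5p gave no Cq in any purification.

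A second list held 15 other miRNAs reported as enriched in brain. In HepG2 6 of 15 were detected with the p21 probe, 8 with the STAT3 probe and 4 with the control probe, beside the 34.1%, 37.1% and 28.8% of all panel 1 assays given above for those probes, and in PC-3 2 with the p21 probe and 1 with the control probe. miR-212, which shares the seed and the cluster of miR-132, stood at 34.43 with the p21 probe, 35.86 with the STAT3 probe and 34.73 with the control probe, so that it was 0.29 log2 units higher with p21 than with the control before centring and -1.01 after. miR-346 stood at 33.86 with p21, 34.69 with STAT3 and 33.85 with control in HepG2 and, unlike all 7 members, was also detected in PC-3, at 33.14 with the p21 probe and 33.26 with the control probe. miR-138, a miRNA of dendrites, gave 36.05 with p21, 34 with STAT3 and 32.43 with the control probe, which is again latest with p21.

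Other miRNAs of this list passed the limit with the target probes and not with the control. This was common over all 740 assays. There 106 were detected with p21 and not with control, and 22 the other way. With STAT3 and not control there were 154, and 25 the other way. miR-326 stood at 32.48 with p21 and 34.63 with STAT3, with no Cq in the control purification, and was 1.51 log2 units higher with p21 than with STAT3 after centring. miR-504, on panel 2 (p21 33.92, STAT3 34.61), and miR-7 (p21 34.26, STAT3 34.57) likewise passed the limit in HepG2 with the target probes only, as did miR-149 (p21 34.40, STAT3 33.80). miR-149 also passed the limit in PC-3 with the p21 probe, at 34.96.

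Lists from other tissues were set beside the neural one in HepG2. Of 7 muscle miRNAs 2 were detected with the p21 probe, 3 with the STAT3 probe and 3 with the control probe, where miR-133a stood at 31.64 with p21, 31.96 with STAT3 and 31.77 with control, miR-133b at 32.30 with p21, 31.57 with STAT3 and 30.50 with control, and miR-1 at 36.41 with p21, 33.19 with STAT3 and 31.52 with control. Of 7 blood-cell miRNAs 3 were detected with p21, 3 with STAT3 and 4 with control. The shares of all panel 1 assays were 34.1% with p21, 37.1% with STAT3 and 28.8% with control. The muscle list also holds assays of panel 2, where 16 of 365 were detected with control. In PC-3 0 of the muscle and 0 of the blood-cell miRNAs passed the limit with either probe. Of all panel 1 assays 10.1% passed it there with p21 and 2.13% with control. Of the 3 miRNAs reported as high in PC-3, 2 passed it with p21 (miR-222 at 33.64 and miR-221 at 33.92) and 0 with control. For p21 against control 2 muscle and 3 blood-cell miRNAs were within the limit in both purifications, and each of these was at least 2-fold lower after centring (median -2.14 for muscle and -1.96 for blood-cell miRNAs), beside the 5 of 6 neural miRNAs and 37.3% of all assays. Of 5 stromal miRNAs 3 were within the limit in both, with 2 lower and 1 (miR-199a-5p, 1.90 log2 units) higher. Of 3 miRNAs reported as high in PC-3, 2 were within the limit in both, with 0 lower and 1 higher (median 0.95). No test of a difference between these lists was made.

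HepG2 set against PC-3 with the same probe can be given only as a lower limit, with PC-3 taken at Cq 35 and without centring. With PC-3 fixed there, each such limit depends only on the HepG2 Cq. Few panel 1 assays passed in PC-3: 8 of 375 in its control purification against 108 in that of HepG2. For p21 the counts were 38 against 128. In the control purifications let-7b (Cq 30.32) and miR-92a (30.58) were earlier than miR-9 in HepG2 and gave no Cq in PC-3. Whether the members differed from the panel here was not tested. With the control probe miR-124 was at least 65.3-fold higher in HepG2, miR-9 at least 18.2-fold, miR-338-3p at least 9.27-fold and miR-128 at least 7.59-fold. miR-219-5p (5.48-fold), miR-132 (2.99-fold) and miR-137 (1.76-fold) had smaller limits. U6, SNORD38B and SNORD49A of the same panel differed between the control purifications by a mean of 0.20 log2 units (-0.29 to 0.89), and relative to them the limit for miR-124 was 56.9-fold. With the p21 probe miR-124 was at least 57.4-fold higher in HepG2 and miR-132 at least 6.54-fold, while miR-219-5p (3.10-fold), miR-9 (2.35-fold), miR-128 (2-fold) and miR-338-3p (1.07-fold) had lower limits. The small RNAs differed by 0.50 log2 units with this probe (-0.16 to 1.08), and relative to them the limit was 41-fold for miR-124 and 1.42-fold for miR-128, with none left for miR-338-3p. Cell line and purification cannot be told apart here, nor can fewer cells and less RNA per cell.

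The authors' deposited table of folds gives the members on another scale. For p21 over control in HepG2 the authors' deposited table lists miR-338-3p at 0.098, miR-9 at 0.110, miR-128 at 0.224, miR-219-5p at 0.480, miR-137 at 0.481, miR-124 at 0.746 and miR-132 at 1.85. For STAT3 over control the authors' deposited table lists miR-219-5p at 0.323, miR-128 at 0.421, miR-9 at 0.618, miR-338-3p at 0.631, miR-137 at 1.22, miR-132 at 1.70 and miR-124 at 1.92. For the 6 members within the limit in both purifications for p21, and for the 7 for STAT3, the order is that of the Cq differences above, since these 13 values are, within 0.0048 log2 units, the Cq differences with the UniSp6 wells as the only correction. In PC-3 the authors' deposited table gives all 7 the same value of 0.710, shared by 335 of its 729 entries. The same number follows from the UniSp6 spike-in wells of panel 1 alone (0.710), and no member passed the limit in either PC-3 purification.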

How the data were processed

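Per the labels' protocols, cells were transfected with a probe, the RNA held by it was captured on Dynabeads and extracted in TRIzol, and Exiqon panels were run by SYBR Green RT-PCR. Probe sequences, instrument and threshold are not stated in the sources used. The authors deposited Cq values without normalisation, a single well for each assay. They also deposited a table of fold ratios, per the file headers 2 to the power of minus ΔΔCt against an unnamed housekeeping gene; its columns are titled as logs, but no value is negative, so they were read as linear ratios.

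Groups were taken from the titles. A difference was the Cq of the second-named purification minus that of the first, for assays with Cq of at most 35 in both, minus the panel median over miRNA assays. With 1 purification per condition no test was made. The technical SD came from the reference miRNAs, small RNAs and UniSp6, which are on both panels. Alternatives were limits of Cq 32 and 37, 5 other centrings, undetected wells set to 35, and the authors' folds. The miRNAs named were the 7 members, those of the opposite-strand and second brain lists detected in at least 2 HepG2 purifications, and nearest profiles (3 per member sought). miR-1, miR-122, miR-133a, miR-133b, miR-143, miR-199a-5p, miR-221, miR-222, let-7b, miR-92a, miR-9*, miR-124*, miR-132* and miR-338-5p were named after their values were seen. Members and lists were chosen with earlier results of these data known. The calculation was tested on simulated data. Python 3.11.15, pandas 2.3.3, NumPy 2.4.6 and matplotlib 3.10.9 were used. Sequences and loci are from RefSeq.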

Additional observations from a re-analysis of the deposited data

Results flagged for a closer look

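Wells above the limit of Cq 35 enter the comparisons at most as a bound at 35, apart from the alternative with a limit of 37. In the PC-3 p21 purification miR-128 gave such a late signal at Cq 36.30 and miR-124 at 38.80, where the PC-3 control purification gave no Cq for either. Late signals were common there: 91 of 375 panel 1 assays with the p21 probe and 50 with the control probe had a Cq above 35.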

How the results depend on the processing

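No paired analysis was possible because each condition was purified 1 time. The 3 HepG2 comparisons are given in the order p21 against control, STAT3 against control and p21 against STAT3, with medians in log2 units of -2.67, -1.64 and -1.05. With UniSp3 as the only correction the medians reversed to 0.91, 0.15 and 0.57, with 0, 0 and 0 members at least 2-fold lower and 3, 3 and 2 higher, where 88 of 102, 70 of 99 and 85 of 153 assays were higher. Every centring moves all panel 1 assays alike, so relative to the panel 1 median the members' medians stayed at -2.67, -1.64 and -1.05. On the reference assays they were -5.09, -3.26 and -2.07, and on U6, SNORD38B and SNORD49A -3.81 and -2.90 for the first 2; 7 members were lower for STAT3 on either, as were 54 (small RNAs) and 59 (reference assays) of 99 assays. With UniSp6 alone the first 2 were -1.61 and -0.66, with 2 lower for STAT3, where 10 of 99 assays were. Without centring the first was -1.37 with 3 lower, where 11 of 102 assays were. In that setting 1 member was higher for p21 against control and against STAT3, where 56 of 102 and 57 of 153 assays were. With undetected wells at 35 the first was -0.82 with 3 lower and 1 higher, where 21 and 114 of 740 assays were. For p21 against STAT3 1 member was higher in that setting, where 81 of 740 assays were. At Cq 32 the members measured fell to 1, 2 and 1, all lower, where 8 of 21, 9 of 23 and 8 of 43 assays were. At that limit 1, 2 and 3 members were detected with p21, STAT3 and control in HepG2. Of the 375 panel 1 assays 53, 45 and 27 were detected there. At Cq 37, 1 member was detected with either probe in PC-3, where 74 (p21) and 27 (control) of 375 panel 1 assays were. The other 47 values moved by less than the technical SD or, for counts, by at most 1.5 times. The authors' folds stood 0.98 to 1.07 log2 units above the centred values for 13 of 13, within 0.0048 of the UniSp6 setting, and 4 changed sign, all from under 2-fold. PC-3 gave no difference for any member, and at Cq 35 for undetected wells all are 0 by construction. At Cq 32 fewer members are measured. The number of molecules behind a Cq is unknown.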
